A study of Mus musculus with 6 samples.

Results

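Interferon-induced genes whose products act on viruses directly were followed in cells selected for high or low binding of a secreted protein, and the 10 were *Mx1*, *Mx2*, *Rsad2*, *Cmpk2*, *Samhd1*, *Isg20*, *Bst2*, *Ifitm1*, *Ifitm2* and *Ifitm3*. They were taken by gene symbol, in a choice made with earlier results of these data known, so counts of them describe and do not test. Each of the 10 had at least 1 transcript cluster of its own on the array, 13 clusters in all, among 19938 genes with such a cluster. A transcript cluster is a group of probes read together, and where a gene had several, the brightest of them by its mean on the 6 arrays stood for the gene. The cells were an immortalised stromovascular fraction (SVF) line, which holds preadipocytes, made from inguinal white fat, the donors being male mice of strain 129SVE. FcsFNDC4 is the soluble part of FNDC4 fused to an antibody Fc part, and by repeated sorting for the fluorescence it left on the cells a high binding population (HBC) and a low binding population (LBC) were obtained, both from that 1 line and both at passage 20. RNA of 3 technical replicates of HBC and 3 of LBC was read on Affymetrix mouse gene arrays, so the spread between replicates is that of 1 population each and p-values do not cover independent sorts. The titles, descriptions and cell phenotypes place 3 arrays in each group. The source name given for LBC replicate 2 and for LBC replicate 3 was that of HBC, and the arrays were grouped by title. On both of these arrays, as on LBC replicate 1, all 10 genes lay below every HBC array, an order found for 10.1% of all genes. Across all genes, arrays correlated at 0.996 to 0.999 within the groups by title and at 0.98 to 0.986 between them. In RNA from whole populations, fewer cells that express a gene and less RNA per cell cannot be told apart.

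Type I interferon, bound by its receptor, activates Janus kinases and, through them, transcription factors, STAT2 and IRF9 among them, that act at the interferon-stimulated response element (ISRE) of their target genes. Among those targets are proteins that block viruses at separate steps of infection. MX proteins are dynamin-like GTPases that form rings around viral nucleocapsids. Viperin, the product of *Rsad2*, makes a chain-terminating nucleotide from CTP, and CMPK2 is a nucleoside monophosphate kinase of mitochondria encoded beside it. SAMHD1 breaks down deoxynucleotides, and ISG20 is an exonuclease that degrades single-stranded RNA. Tetherin, the product of *Bst2*, holds budding virions on the cell surface, and the IFITM proteins hinder the fusion of viruses with cell membranes.

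The promoters of these genes were read for the ISRE core, since it is the element at which the factors named above act. Whether they act on these genes in these cells was not tested. RefSeq (GRCm38.p6) gave the window from 250 bases before to 50 bases after the annotated start for 8 of the 10 genes, and none for *Mx1* and *Mx2*. The core searched was GAAANNGAAA on either strand, overlaps between matches allowed. It was found in 1 or more windows of 4 of these 8 genes, against 3.99% of 27025 genes in the whole table. In *Bst2* 2 overlapping matches began 130 and 124 bases before the start, and in *Rsad2* 1 match, on the opposite strand, lay with its first printed base 120 bases before it. *Ifitm3* had 2 matches, at positions 3 and 20 counted from the start as 1, and *Ifitm2* had 1, beginning 46 bases before it. *Cmpk2* is shown beside them because it had the largest difference between the populations and no match in this window. The windows of *Ifitm1* and *Samhd1* and the 3 windows of *Isg20* held none either. A match is a run of letters and not a measured binding site, and its absence concerns this window only. The sequences are printed from 5′ to 3′ on the strand of the gene, with the matches in capitals, for Bst2 (chr8:71537423-71537722, minus strand), Rsad2 (chr12:26456403-26456702, minus strand), Ifitm3 (chr7:141010695-141010994, minus strand), Ifitm2 (chr7:140955912-140956211, minus strand) and Cmpk2 (chr12:26468965-26469264, plus strand).
Bst2: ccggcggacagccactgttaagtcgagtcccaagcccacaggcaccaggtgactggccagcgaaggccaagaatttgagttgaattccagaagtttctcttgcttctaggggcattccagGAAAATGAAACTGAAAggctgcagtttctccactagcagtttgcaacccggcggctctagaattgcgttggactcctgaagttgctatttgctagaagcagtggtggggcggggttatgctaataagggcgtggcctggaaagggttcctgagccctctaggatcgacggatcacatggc
Rsad2: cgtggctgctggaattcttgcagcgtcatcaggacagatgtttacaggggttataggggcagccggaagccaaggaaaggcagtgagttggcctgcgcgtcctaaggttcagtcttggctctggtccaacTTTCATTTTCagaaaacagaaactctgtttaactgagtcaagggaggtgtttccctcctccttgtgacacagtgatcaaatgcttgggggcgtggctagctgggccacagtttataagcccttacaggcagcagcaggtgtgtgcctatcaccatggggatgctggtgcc
Ifitm3: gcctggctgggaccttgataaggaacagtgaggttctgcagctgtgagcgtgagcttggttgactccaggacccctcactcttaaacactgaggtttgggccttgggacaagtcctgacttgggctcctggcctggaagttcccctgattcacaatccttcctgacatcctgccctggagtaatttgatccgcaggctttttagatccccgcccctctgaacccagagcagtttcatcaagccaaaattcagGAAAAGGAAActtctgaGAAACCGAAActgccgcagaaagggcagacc
Ifitm2: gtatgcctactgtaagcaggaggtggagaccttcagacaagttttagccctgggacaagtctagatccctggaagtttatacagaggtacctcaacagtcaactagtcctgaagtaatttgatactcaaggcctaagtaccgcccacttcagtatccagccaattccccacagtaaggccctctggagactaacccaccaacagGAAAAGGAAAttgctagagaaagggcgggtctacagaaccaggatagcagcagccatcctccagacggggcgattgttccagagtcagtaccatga
Cmpk2: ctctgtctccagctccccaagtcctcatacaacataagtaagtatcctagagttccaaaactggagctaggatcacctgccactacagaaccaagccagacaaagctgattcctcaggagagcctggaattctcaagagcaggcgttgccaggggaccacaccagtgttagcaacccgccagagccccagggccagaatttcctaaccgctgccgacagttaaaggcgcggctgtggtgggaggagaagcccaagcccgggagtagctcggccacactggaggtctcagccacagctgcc

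Most of the 10 antiviral genes were higher in HBC, and the differences came in 2 sizes. *Cmpk2*, *Mx2*, *Bst2*, *Mx1* and *Rsad2* had 7.21 to 10.7 times the mean intensity in HBC that they had in LBC, while *Samhd1*, *Ifitm3*, *Isg20*, *Ifitm1* and *Ifitm2* had 1.16 to 1.65 times. Of the 10, 8 were called higher in HBC, against 2.54% of all 19938 genes, and none was called lower, against 1.13%. A gene was called at an adjusted p under 0.05 from limma and a fold above 1.5, on log2 of the intensity with 16 added to temper dim signal. A log2 fold change above 2 was reached by 5 of the 10, against 0.406% of all genes, and 9 of the 10 were higher at an adjusted p under 0.05 whatever the fold, against 6.93%. The median log2 fold change was 1.43 over the 10 genes and -0.072 over all genes. For all 10 genes the 3 HBC arrays lay above the 3 LBC arrays, which was so for 10.1% of all genes, while 25.1% had the 3 HBC arrays below the 3 LBC arrays. With 3 against 3 arrays an exact two-sided permutation test cannot go below p = 0.10, and it gave that value for each of the 10.

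**Figure D1:**
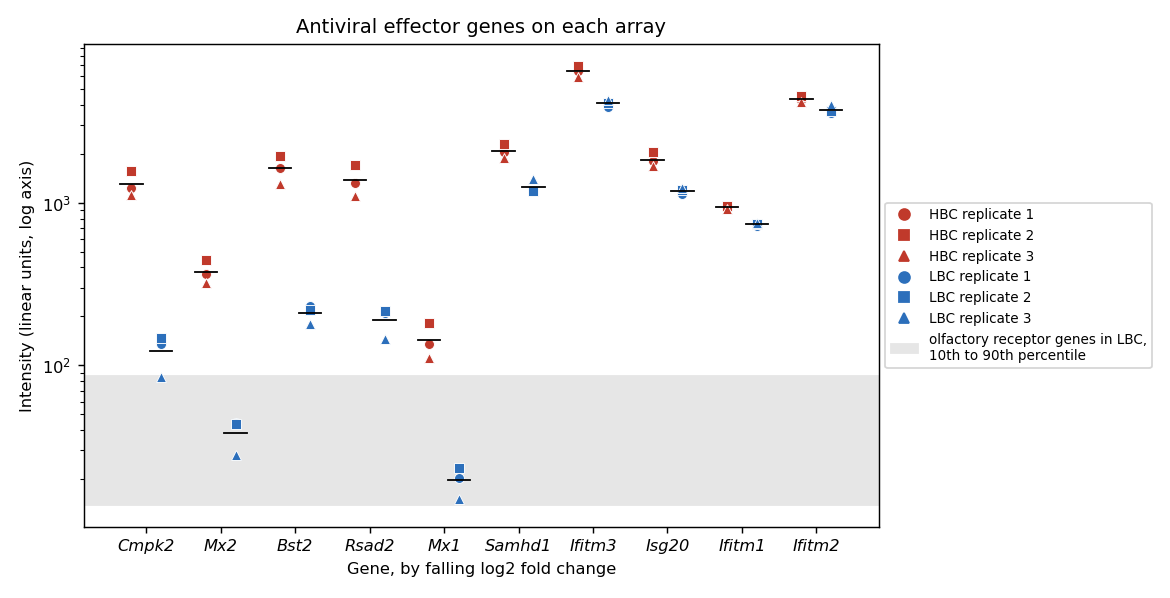
Intensity (linear units on a log axis) of the 10 antiviral genes on each array, HBC in red and LBC in blue, with the replicate by symbol, black lines at the group means, and a grey band for the 10th to 90th percentile of olfactory receptor genes in LBC. All HBC arrays lie above all LBC arrays for each gene, and *Mx1* and *Mx2* lie within the band in LBC.

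Both *Mx* genes were read far higher in HBC, while in LBC their signal was dim. *Mx2*, whose product is cytoplasmic in mice, had an intensity of 362, 445 and 321 on the HBC arrays, against 44.1, 43.4 and 27.97 on the LBC arrays. The lowest HBC array was thus 7.27 times the highest LBC array. Between the group means, the limma difference on the log2 scale was 2.85 ± 0.11 (standard error here and below, adjusted p = 1e-18). *Mx1*, which encodes the nuclear MX protein of mice, known for its action on influenza virus, read 135, 182 and 111 in HBC, against 20.5, 23.5 and 15.01 in LBC. Its groups did not overlap either, and differed by 2.14 ± 0.11 on the log2 scale (adjusted p = 1.9e-15). The 1015 olfactory receptor genes, a yardstick for dim signal, had a 10th to 90th percentile of 13.9 to 86.3 in LBC, and both *Mx* genes lay inside it there. With every intensity below their 90th percentile over all arrays (84.5) raised to that value, *Mx2* kept a log2 fold change of 2.14 (adjusted p = 0.0034), whereas *Mx1* had 0.73 (adjusted p = 0.11) and was not called. The mean of *Mx1* in HBC was 1.69 times that percentile and the mean of *Mx2* was 4.45 times, so the call of *Mx1* and the size of both differences rest on signal in the dim range. RefSeq lists *Mx1* and *Mx2* of the C57BL/6J genome as transcribed pseudogenes and the other 8 as protein coding, and what the 129SVE alleles of this line encode was not tested.

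The enzymes that act on nucleotides fell on both sides of the gap in size. *Cmpk2* had the largest difference of the 10 and rank 11 among all 19938 genes by log2 fold change. It read 1241, 1561 and 1123 in HBC, against 135, 148 and 84.4 in LBC, or 10.7 times as much, a difference of 3.28 ± 0.13 on the log2 scale (adjusted p = 1e-18). *Rsad2*, its neighbour on chromosome 12 on the opposite strand, read 1315, 1695 and 1103 in HBC, against 209, 216 and 145 in LBC. Its mean was 7.21 times as high in HBC, or 2.75 ± 0.12 on the log2 scale (adjusted p = 2.7e-17). For both genes HBC replicate 2 was the highest array and LBC replicate 3 the lowest, and the groups were far apart. *Samhd1* was higher by less, at 2045, 2283 and 1880 in HBC and 1178, 1188 and 1399 in LBC, or 1.65 times as much (0.71 ± 0.093 on the log2 scale, adjusted p = 6.2e-07). *Isg20*, the exonuclease, read 1806, 2037 and 1680 in HBC, against 1130, 1191 and 1226 in LBC, or 1.56 times as much. Its log2 difference of 0.63 ± 0.089 (adjusted p = 2.7e-06) was close to the fold threshold, and without HBC replicate 2 it was 0.55 and *Isg20* was not called.

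Of the genes whose products sit in membranes, *Bst2* was far higher in HBC and the IFITM genes differed little. *Bst2* read 1631, 1941 and 1308 in HBC, against 231, 219 and 181 in LBC, or 7.74 times as much with no overlap (2.85 ± 0.11 on the log2 scale, adjusted p = 8e-19). *Ifitm3*, the family member best known for restricting influenza virus, read 6434, 6936 and 5918 in HBC, against 3900, 4084 and 4277 in LBC. It was 1.57 times as high in HBC, or 0.65 ± 0.087 on the log2 scale (adjusted p = 1.2e-06), and it was the 1 IFITM gene called. *Ifitm1* read 958, 957 and 922 in HBC, against 723, 740 and 749 in LBC. Its log2 difference of 0.35 (95% interval 0.18 to 0.52, adjusted p = 0.0024) passed the test without reaching the fold, and the interval ends at a fold of 1.43. *Ifitm2* read 4292, 4528 and 4179 in HBC, against 3570, 3656 and 3991 in LBC, with a log2 difference of 0.21 (95% interval 0.038 to 0.39, adjusted p = 0.084) that did not pass.

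Several clusters read *Ifitm1* and *Ifitm2*, with the same accessions for each gene, and they moved alike. In a fit over every transcript cluster, the second cluster of *Ifitm1* averaged 707 ± 31.3 in HBC and 502 ± 9.05 in LBC (SD, n = 3 each), a log2 difference of 0.48 (adjusted p = 0.0040), and was not called for its fold. The other 2 clusters of *Ifitm2* had log2 fold changes of 0.29 (adjusted p = 0.13) and 0.25 (adjusted p = 0.078). IFITM genes are close copies of each other, and how far a probe of one reads another was not tested, so their separate values are uncertain.

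Set in order of log2 fold change, the 10 genes gave 9 neighbouring pairs, and for 4 of them HBC and LBC overlapped in the difference between the 2 genes. The difference between 2 genes was taken on each array, and the arrays of HBC and LBC overlapped in it for *Mx2* and *Bst2*, for *Bst2* and *Rsad2*, for *Samhd1* and *Ifitm3*, and for *Ifitm3* and *Isg20*. They did not overlap for *Cmpk2* and *Mx2*, whose fold changes differed by 0.43 on the log2 scale, for *Isg20* and *Ifitm1* (0.28) or for *Ifitm1* and *Ifitm2* (0.14). How often pairs of other genes lack overlap was not measured, so this describes the pairs and does not test them. The IFITM gaps also hang on the cluster read, since other clusters had 0.48 for *Ifitm1* and 0.29 and 0.25 for *Ifitm2*. The arrays did not overlap either for *Mx1* and *Samhd1*, on either side of the gap, which differed by 1.42 with 16 added and by 2.07 with 1 added. With the olfactory floor these 2 genes had log2 fold changes of 0.73 and 0.72, so the place of *Mx1* above the gap is not fixed by these data. *Mx2*, also dim in LBC, differed from *Bst2* by 0.34 without overlap with 1 added, and from *Cmpk2* by 0.16. *Rsad2* and *Mx1* differed by 0.61 with 16 added and by 0.051, with overlap, with 1 added, so the ranks of both *Mx* genes hang on how dim signal is treated. With 1 added, *Mx1* had a log2 fold change of 2.79, and with 50 added 1.45.

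**Figure D2:**
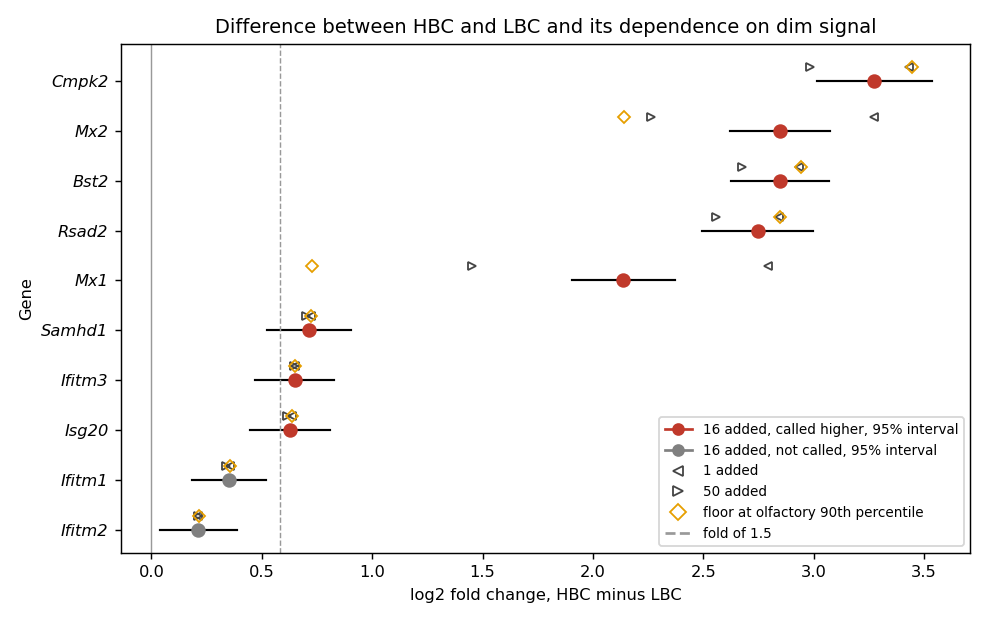
Log2 fold change (HBC minus LBC) of the 10 antiviral genes with 16 added to the intensity and its 95% interval from limma (3 arrays per group), in red where called and grey where not, with open symbols for 1 or 50 added and for a floor at the 90th percentile of olfactory receptor genes. The symbols spread widely for *Mx1* (0.73 to 2.79) and *Mx2* (2.14 to 3.27), and the dashed line marks a fold of 1.5.

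Single arrays shifted these genes together within a group. HBC replicate 2 was the highest HBC array for 9 of the 10 genes, *Ifitm1* being the exception. It was so for 37.8% of all genes and for 79.5% of the 507 genes called higher. HBC replicate 3 was the lowest for all 10, against 41.1% of all genes and 78.7% of the genes called higher. Over the 8 genes called, the mean log2 deviation from the group mean was -0.024, 0.23 and -0.21 on HBC replicates 1, 2 and 3, against 0.001, -0.009 and 0.008 over all genes. The 507 genes called higher in HBC deviated the same way, at 0.096 on replicate 2 and -0.095 on replicate 3. In LBC the 10 genes split in a way that ran both by size of difference and by brightness. LBC replicate 3 was the lowest LBC array for each of the 5 genes with the larger ratios and the highest for each of the 5 with the smaller ratios. It was the lowest LBC array for 38.8% of all genes and the highest for 50.1%. The 5 genes with the larger ratios averaged at most 210 in LBC (*Bst2*) and the other 5 at least 738 (*Ifitm1*). Size of difference and brightness therefore cannot be told apart in this split. LBC replicate 3 had the highest mean intensity of the LBC arrays (547.1, against 470.8 and 489.5) and the lowest median (130.7, against 134 and 134.6). *Cmpk2* lay 0.43 below its LBC mean on that array on the log2 scale, and *Samhd1* 0.16 above. Without LBC replicate 3, the log2 difference was 3.06 for *Cmpk2* and 0.79 for *Samhd1*. The highest HBC array was 1.39 to 1.63 times the lowest for the 5 genes with the larger ratios, and 1.04 to 1.21 times for the other 5. In LBC these spans were 1.28 to 1.75 times and 1.04 to 1.19 times. All of these spans were smaller than the ratios of 7.21 to 10.7 between the populations, while among the smaller ratios the LBC span of *Ifitm2* (1.12) was close to its ratio of 1.16 and the HBC span of *Samhd1* (1.21) stood below its ratio of 1.65.

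**Figure D3:**
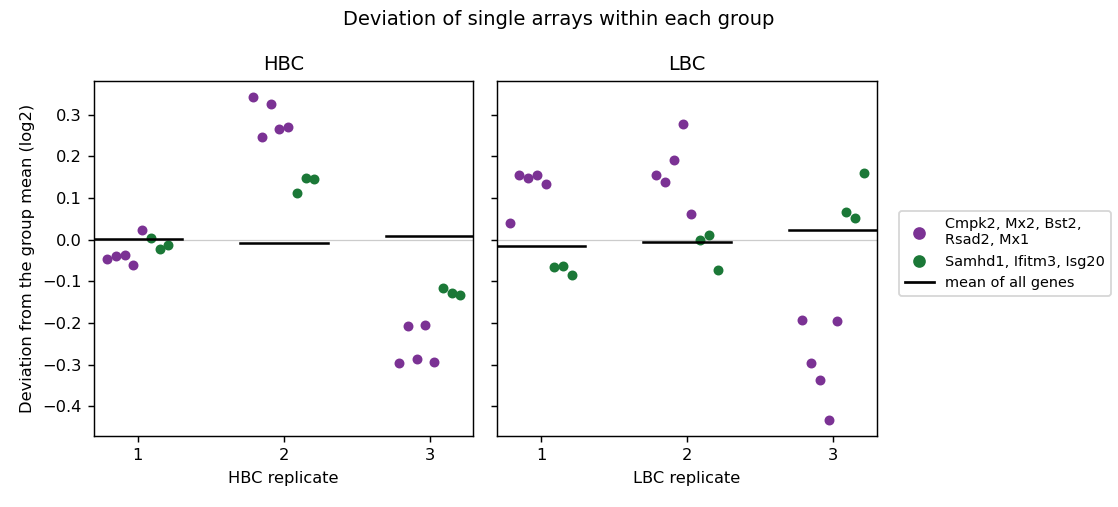
Deviation of each of the 8 called genes from its own group mean on each array (log2 of intensity + 16), HBC in the left panel and LBC in the right, in purple for the 5 genes with the larger ratios and green for *Samhd1*, *Ifitm3* and *Isg20*, with black bars for the mean of all 19938 genes. All 8 are highest on HBC replicate 2, and the colours part on LBC replicate 3.

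Most of the other antiviral effector genes read here were called higher in HBC as well. Of 24 listed, 21 had a cluster of their own, with a median of 1.62 on the log2 scale. Of these 21, 16 were called higher, against 2.54% of all genes, none lower, against 1.13%, and 5 were not called. The 2-5A synthetases *Oas2* (4.55), *Oas1a* (3.28) and *Oas3* (3.27) had the largest log2 fold changes, with *Zbp1*, a nucleic acid sensor (3.17), *Gbp3*, a guanylate-binding protein (3.06), *Oasl2* (3.06), *Trim30a* (3.02) and *Ifit3*, which binds viral RNA (2.83). Those not called were *Mov10* (0.55), *Serinc3* (0.29), *Ch25h* (0.13), *Serinc5* (-0.015) and *Apobec3* (-0.11). *Isg15* and *Gbp2* were read only together with other genes.

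Among genes of interferon signalling 4 were called higher, and the interferons, receptors and Janus kinases were not called. Of 25 listed genes 23 were measured, with a median log2 fold change of 0.097. Of these 23, 4 were called higher, against 2.54% of all genes, none lower, against 1.13%, and 19 were not called. *Irf7*, a factor that drives interferon genes, averaged 1153 in HBC and 102 in LBC (3.37 on the log2 scale), and *Stat2* (2.35) and *Irf9* (1.71) encode parts of the complex that binds the ISRE. *Usp18*, which removes ISG15 and dampens the receptor, had 2.37. *Irf5* (0.53), *Irf1* (0.39), *Socs1* (0.37) and *Ifnar2*, a receptor subunit (0.32), followed without reaching the fold. The kinases *Jak1* (0.30, adjusted p = 0.030), *Tyk2* (0.19, adjusted p = 0.12) and *Jak2* (0.14, adjusted p = 0.28) did not reach it either, and *Irf3* had -0.23 (adjusted p = 0.067), with its 3 HBC arrays below the 3 LBC arrays. The 6 interferon genes measured, *Ifnb1*, *Ifna4*, *Ifne*, *Ifnk*, *Ifng* and *Ifnl2*, had log2 fold changes from -0.15 to 0.073 with adjusted p from 0.23 to 0.92. *Ifnb1* averaged 65.5 in HBC and 64.9 in LBC, and *Ifna4* 51.2 in HBC and 47.6 in LBC, both inside the olfactory range, where a small difference was not detectable. *Ifnl2*, well above that range, averaged 639 in HBC and 668 in LBC (-0.063, 95% interval -0.24 to 0.11).

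Genes of the same protein families as the antiviral genes were not called. None of 20 such relatives was called, against 3.67% of all genes in either direction, with a median log2 fold change of -0.069. Without the fold threshold 5 of the 20 had an adjusted p under 0.05, against 18.3% of all genes, so neither count sets the relatives apart from other genes. These were *Dnm1*, a dynamin like the MX proteins (0.46), *Mocs1*, a radical SAM enzyme like viperin (0.42), and *Ifitm6* (0.36) on the higher side, with *Lias* (-0.26) and *Aen*, an exonuclease related to ISG20 (-0.37), on the lower. The IFITM relatives *Ifitm5*, *Ifitm7* and *Ifitm10* had log2 fold changes from -0.17 to -0.061. Around *Cmpk2* and *Samhd1*, none of 14 genes of deoxynucleotide metabolism was called, with a median of -0.21, and at a share of 3.67% over all genes a count of 0 among 14 does not set them apart. At any fold 6 of the 14 were lower in HBC at an adjusted p under 0.05, against 11.4% of all genes, and none was higher. The largest of these were *Dctd* (-0.42), *Tk1* (-0.35) and *Dck* (-0.34). *Cmpk1*, the cytosolic counterpart of *Cmpk2*, had 0.15 (adjusted p = 0.29).

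**Figure D4:**
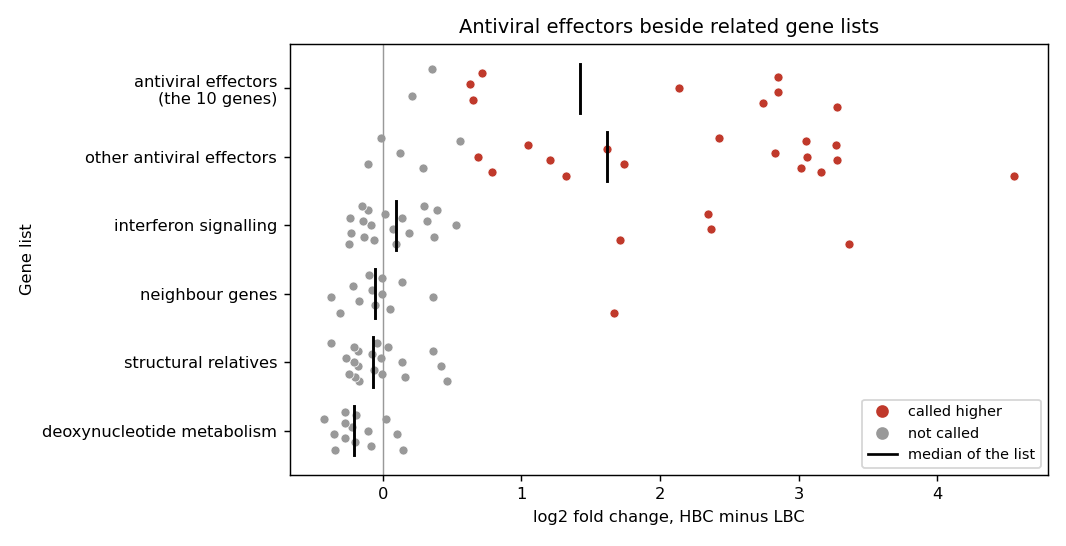
Log2 fold change (HBC minus LBC) of each gene of the 10 antiviral effectors and of 5 related lists, in red where called higher and grey where not called, with a black bar at the median of each list. The medians are 1.43 for the 10 genes, 1.62 for other antiviral effectors, 0.097 for interferon signalling, -0.055 for neighbouring genes, -0.069 for structural relatives and -0.21 for deoxynucleotide metabolism.

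Few of the genes beside the antiviral genes were called, as holds for all genes. The nearest measured genes on either side of each locus in the RefSeq table, 13 in all, had a median of -0.055 on the log2 scale, and 1 was called, against 3.67% of all genes. This was *Rnf144a*, a ubiquitin ligase gene next to *Rsad2* and *Cmpk2*, at 592, 597 and 568 in HBC and 167, 166 and 189 in LBC (1.67 ± 0.085 on the log2 scale, adjusted p = 7.3e-16). On the other side of that pair, *Gm9866* had -0.004. Beside the *Mx* genes, *Bace2* (-0.003), *Fam3b* (-0.082) and *Tmprss2* (-0.10) were not called, and beside *Bst2* neither were *Plvap* (-0.22) and *Mvb12a* (0.14). Beside *Isg20*, *Aen* (-0.37, adjusted p = 0.0020) and *Acan* (-0.31, adjusted p = 0.0097) were lower in HBC at a fold below 1.5, with the HBC arrays below the LBC arrays.

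The genes with the profile most like the mean of the 8 called antiviral genes over the 6 arrays, by Euclidean distance of log2 values centred per gene, were *Parp10*, an ADP-ribosyltransferase (distance 0.099), *Pla2g4c* (0.15), *Herc6*, the ligase for ISG15 in mice (0.15), *Pla1a*, a phospholipase (0.15), and *Lgals9*, a galectin (0.17). Each was higher in HBC, as the choice requires, with log2 fold changes from 1.87 to 1.95. The mean pools genes of both sizes of difference, and these values lie in the gap between *Samhd1* (0.71) and *Mx1* (2.14), where none of the 8 lies. *Parp10* averaged 771 ± 88.7 in HBC and 187 ± 18.5 in LBC (SD, n = 3 each).

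Most markers of preadipocytes or fibroblasts were bright, those of endothelium were dim, and those of leukocytes were dim or near the array medians. Median intensities were 122 to 132 on the HBC arrays and 131 to 135 on the LBC arrays, and arrays correlated across genes at 0.996 to 0.999 within and 0.98 to 0.986 between the groups. *Pdgfra*, *Col1a1* and *Dlk1* averaged 4096, 4690 and 3950 in HBC and 3166, 3685 and 4330 in LBC, while *Dpp4* was dim in both (44.8 in HBC and 45.3 in LBC) and *Thy1* (149 in HBC and 166 in LBC) and *Cd34* (134 in HBC and 189 in LBC) lay near the medians. None of 10 leukocyte markers was called higher or lower, their summed intensity ran from 1005 to 1045 in HBC and from 1108 to 1203 in LBC, and *Ptprc* (59.8 in HBC and 69.9 in LBC), *Adgre1*, *Mrc1* and *Lyz2*, 4 of the 10, lay in the olfactory range. *Cd68* (174 in HBC and 188 in LBC), *Itgam* (159 in HBC and 189 in LBC), *Nkg7* (162 in HBC and 171 in LBC) and *Cd3e* (143 in HBC and 140 in LBC) were above it, as were *Csf1r* (90.1 in HBC and 94.9 in LBC) and *Cd14* (107 in HBC and 155 in LBC), and *Cd14* was lower in HBC at a fold below 1.5 (-0.48, adjusted p = 8.9e-05). The markers of plasmacytoid dendritic cells other than *Bst2* itself were not called. Of these, *Siglech* (60.9 in HBC and 61.6 in LBC), *Ccr9* and *Spib* lay in the olfactory range. *Tcf4* was bright, at 2036 in HBC and 1740 in LBC (0.23, adjusted p = 0.078). None of 5 endothelial markers was called and all 5 were in the olfactory range. At a share of 3.67% called over all genes, having none called does not set the leukocyte or endothelial markers apart. Of 5 adipocyte markers *Cebpa* was called higher (0.85). *Fabp4* (0.42, adjusted p = 0.0013) and *Pparg* (0.33, adjusted p = 0.007) were higher in HBC at a fold below 1.5. *Plin1* had -0.005, and *Adipoq* was dim in both groups. Of 4 mesothelial markers *Msln* was called lower (-1.20), while *Krt19* was higher in HBC at a fold below 1.5 (0.375, adjusted p = 0.0022). *Upk3b* (-0.045) and *Lrrn4* (-0.14) did not pass. The part of the cells these markers stand for in the antiviral genes was not tested.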

How the data were processed

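RNA of HBC and LBC was measured on 6 arrays. The deposited values were linear intensity per transcript cluster. The submitters' processing notes name Affymetrix Expression Console as the tool with which the authors made them. Its version was not given in the sources used here, nor were the summary method and any normalization of the arrays. The study's methods name another version of the array than the annotation that matched the identifiers. That annotation gave 1 symbol to 21789 of 35556 clusters, and clusters with several symbols (1621) or none (12146) were left out. The comparison of HBC with LBC used limma 3.58.1 (R 4.3.3) on log2(intensity + 16), over 19938 genes, with Benjamini-Hochberg adjustment. The fit had 24.9 prior against 4 residual degrees of freedom, so the exponent of a very small adjusted p carries little meaning. The script was tested on simulated data. The number of arrays limits the precision.

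Members and gene lists were chosen with earlier results of these data known. Named were all 10 genes, up to 8 genes per list by size of change, any in a count of 5 or fewer, neighbours that were called and the 5 nearest profiles; *Gm9866*, neighbours not called, *Irf3*, the Janus kinases and some markers were named in addition after their values were seen. Alternatives were 3 normalizations, filters on intensity, 1 or 50 added, the methods' t-test, other variance priors, other choices of cluster, other fold thresholds, a replicate block and leaving out each array. The olfactory floor and leaving out LBC replicates 2 and 3 together were chosen after seeing the data.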

Additional observations from a re-analysis of the deposited data

How the results depend on the processing

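Over 23 alternatives the 10 genes gave 228 log2 fold changes, none of which turned. Of these, 222 stayed on their side of the threshold, 5 lost a call and 1 gained one. *Samhd1*, *Ifitm3* and *Isg20* lost it at a fold above 2, *Isg20* also without HBC replicate 2 (0.55), and *Mx1* with the olfactory floor (0.73, adjusted p = 0.11), while *Ifitm1* gained one without the fold threshold. The t-test, variance priors, intensity filters, replicate block, fold thresholds and the fit over every cluster leave the log2 fold change itself unchanged. Under these it could not turn, so the 228 values are not separate checks. The changes at other fold thresholds follow from the main values. The count of 8 genes called was 5 at a fold above 2 and 7 to 8 when an array was left out. It was 8 with LBC replicates 2 and 3 left out together, where the lone LBC array is assumed to vary like the HBC arrays. With the filter of the methods, a mean above 100 in both groups, *Mx1* and *Mx2* were not tested and 6 of 8 genes were called. Without a fold threshold 3655 genes were called over all genes in place of 732, 9 of interferon signalling in place of 4, 5 structural relatives and 6 deoxynucleotide genes in place of 0, and 4 neighbours in place of 1. At a fold above 2, 280 genes were called. By the methods' t-test, adjusted by Benjamini-Hochberg, the 8 genes had p from 0.0097 for *Bst2* to 0.048 for *Samhd1*. Replicate numbers did not pair the arrays, since the deviations of arrays 1, 2 and 3 correlated between the groups at -0.096, -0.24 and -0.50, and with the replicate block 732 genes and 8 of the 10 were called. Dim signal in LBC limits the ratios of *Mx1* and *Mx2*.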
